A study of Mus musculus with 2 samples.

Results

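The genes described are 45 genes of DNA replication and S phase, taken by their symbols from the 27998 genes listed in a CITE-seq experiment on mouse fetal liver. Every symbol was found once. By role, 5 act in origin licensing, 10 form the MCM helicase or work with it, 7 are polymerase or primase subunits, 6 are the sliding clamp and its loader, 5 bind single strands, cut flaps or ligate, 6 supply nucleotides or clear uracil, 3 assemble chromatin or handle histone mRNA, and 3 drive entry into S phase. Their levels were read as a sum and gene by gene through erythroid differentiation.

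The cells came from pooled e13.5 livers of C57BL/6 embryos, with no further allele and no treatment. In CITE-seq, DNA-barcoded antibodies are sequenced beside the mRNA of each cell, and both libraries, 1 of cDNA and 1 of antibody barcodes, share all 7863 cell barcodes. Ter119+ cells were depleted and then added back in equal number, so the protocol set the balance of Ter119+ and Ter119- cells. The number of cells per stage depended on that balance and on the gates. With 1 library there are no replicates and no test: the 95% intervals given cover counting error alone, not variation among embryos, libraries or gates. Intervals of levels and ratios leave out variation among cells too, so intervals that do not overlap are no test of a difference.

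After filtering, 6424 cells had low lineage antibodies, and 6207 of them fell into 6 stages by Ter119, a surface protein of maturing erythroid cells, and CD71, the transferrin receptor. Cells with low Ter119 were S0-low (low CD71, 1510 cells), S0-medium (medium CD71, 1054 cells) and S1 (high CD71, 612 cells). S2 cells had intermediate Ter119 with high CD71 (1295 cells), S3 cells high Ter119 with high CD71 (838 cells), and S4/S5 cells high Ter119 with low CD71 (898 cells). The median depth ran from 3949 UMIs per cell (unique molecular identifiers, 1 per captured transcript) in S4/S5 to 10282 in S0-medium. From S0-low to S4/S5, globin transcripts took 1.05%, 1.39%, 2.80%, 13.1%, 37.6% and 64.0% of UMIs. The summed erythroid markers, mostly globin, ran from 11827 CPM (counts per 1000000 UMIs of a cell, averaged over cells) in S0-low to 565979 CPM in S4/S5, while *Klf1*, *Gata1*, *Epor* and *Tfrc* were highest in S1 or S2 and lower in S4/S5 (*Klf1* 786 CPM in S2 and 262 in S4/S5). In S0-low, 20.5% of cells belonged to clusters named hepatocyte-like, megakaryocyte-like, myeloid-like or macrophage-like, and in each later stage under 0.5% did. Summed hepatocyte markers stood at 8131 CPM in S0-low and between 506 and 860 CPM in the other stages, and summed myeloid markers at 747 CPM and between 77.9 and 215 CPM. Summed markers of early progenitors stood at 747 CPM in S0-low too, and between 37.9 and 66.1 CPM in the other stages.

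Before a cell copies its DNA, the origin recognition complex, Cdc6 and Cdt1 load the MCM helicase on origins. Cyclin E with its kinase then starts the firing of origins, and Cdc45 and the GINS proteins join the helicase. Polymerase α with primase lays down primers that polymerases δ and ε extend together with the PCNA clamp. Many of the genes for these proteins are targets of E2F factors, which release their transcription at the border of G1 and S phase. Erythroid progenitors divide several times while they mature and stop dividing before the nucleus is lost.

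Sequences are shown for the antibody barcodes, because Ter119 and CD71 set the stages, and for stretches before the start of members that hold an E2F-type motif, because most members were highest in S1 or S2. The barcodes are as in the labels, in lower case.
Ter119 barcode: gaggcgattgat
CD71 barcode: cgaagaaggagt
RefSeq promoter windows (build GRCm38.p6, the mm10 of the files) were matched by symbol for 37 of the 45 members. Each ran from 250 bases before to 50 after an annotated start, and a gene could have several windows. The E2F letters searched on both strands were TTTCCCGC, TTTGGCGC, TTTCGCGC and TTTGCCGC, and overlapping matches were each counted. They were found in windows of 12 members, namely *Cdc25a*, *Cdc6*, *Cdt1*, *Lig1*, *Mcm3*, *Mcm5*, *Mcm6*, *Mcm7*, *Orc1*, *Pola1*, *Pold1* and *Rfc3*, which is 32.4% of those matched. Of all 32851 windows, 2.26% held them. Here and below, member shares are of genes with a match in any of their windows (42 windows for 37 members). The shares of all windows are counted by window, so the measures are not quite alike. CCAAT, on both strands, was in windows of 23 members (62.2%) and in 37.4% of all windows. The letters TTTGAA or TTCGAA of the cell cycle homology region were in windows of 6 members (16.2%) and in 19.2% of all windows. AGATAA or TGATAA, the core bound by GATA factors, was in windows of 3 members (8.11%) and in 18.6% of all windows. Of the 12 members, 4 held a match within the last 100 bases before the start, which are printed 5′ to 3′ with the match in capitals.
Cdc25a (chr9:109875479-109875578, plus strand): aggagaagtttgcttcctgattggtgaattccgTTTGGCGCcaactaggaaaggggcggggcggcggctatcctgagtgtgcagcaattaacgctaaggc
Mcm6 (chr1:128359706-128359805, minus strand): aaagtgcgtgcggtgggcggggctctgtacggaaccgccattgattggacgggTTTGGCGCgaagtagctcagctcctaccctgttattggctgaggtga
Orc1 (chr4:108579354-108579453, plus strand): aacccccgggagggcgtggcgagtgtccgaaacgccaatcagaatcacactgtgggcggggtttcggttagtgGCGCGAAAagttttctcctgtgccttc
Rfc3 (chr5:151651209-151651308, minus strand): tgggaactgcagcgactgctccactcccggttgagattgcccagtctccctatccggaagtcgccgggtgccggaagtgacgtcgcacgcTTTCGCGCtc
The match began 67 bases before the start of the window's transcript in *Cdc25a*, 47 in *Mcm6*, 27 in *Orc1* and 10 in *Rfc3*. That start need not be the first base of the gene. *Orc1* is listed from 108575705, so its stretch lies inside the gene. *Cdc25a* is listed from 109875518, so its stretch spans the first base of the gene. A match is a description of the letters and not evidence of binding. These 4 genes did not share a profile: from S0-low to S1 the ratio of CPM was 0.824 for *Cdc25a*, 1.43 for *Mcm6*, 1.63 for *Orc1* and 1.10 for *Rfc3*.

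As CPM, the 45 genes together were highest in S1 and S2 and lowest in S4/S5. Up to S1 their summed level was 5783 CPM (S0-low), 7422 (S0-medium) and 8829 (S1), and thereafter it was 9139 (S2), 4654 (S3) and 1572 (S4/S5). Thus S1 stood 1.53-fold above S0-low (interval 1.51 to 1.55), S2 was within a few percent of S1 (ratio 1.04, interval 1.02 to 1.05), S3 was at 0.527 of S1 (0.518 to 0.536), and S4/S5 was at 0.338 of S3 (0.328 to 0.348). The sum rests on 54513 UMIs of the members in S1 and on 6729 in S4/S5. Leaving out the cells of the named non-erythroid clusters gave a ratio of 1.46 for S1 over S0-low. Unnamed clusters stayed in, such as a cluster of 484 cells with *Cd34* among its top genes. Another, of 59 cells, had *Dcn*, *Lyve1* and *Col3a1* among them. The ratio of 1.46 may therefore still include cells outside the erythroid lineage.

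The late decline depended on what the UMIs were divided by. On non-globin CPM, where globin UMIs are left out of the total, the sum was 5866, 7588, 9256, 10966, 7399 and 4375 in the order of the stages, and S3 was at 0.799 of S1 and S4/S5 at 0.591 of S3. As UMIs per cell it was 45.1, 76.7, 89.1, 67.8, 28.4 and 7.49, so that S2 was at 0.761 of S1 on this scale, while it was above S1 on both others. On all 3 scales S3 was below S1 and S4/S5 below S3. Fewer captured transcripts per cell and less replication transcript in a cell cannot be told apart here.

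**Figure D1:**
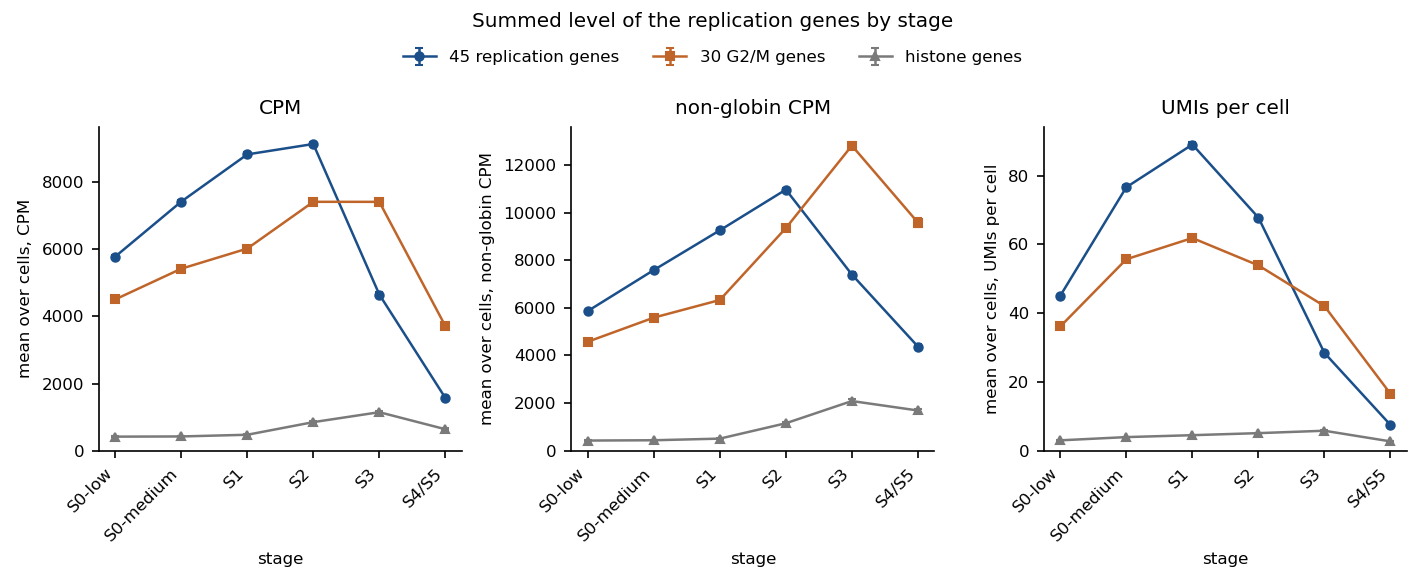
Mean over cells of the summed level of the 45 replication genes (circles), 30 G2/M genes (squares) and histone genes (triangles) in the 6 stages, as CPM, non-globin CPM and UMIs per cell; bars are 95% counting intervals, mostly smaller than the points. The replication genes were highest in S2 as CPM (9139) and in S1 as UMIs per cell (89.1), and lowest in S4/S5 on all 3 scales.

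As a sum, the 30 listed genes of G2 and mitosis, such as *Ccnb1* and *Plk1*, were as high in S3 as in S2 on CPM. The members were lower in S3. Gene by gene, 24 of the 30 G2/M genes were lower in S3 than in S2, with a median ratio of 0.882 (all genes 0.614). From S1 to S3, 16 of the 30 G2/M genes were higher and 14 lower, with a median of 1.02 (all genes 0.478). Their sum was 4508 CPM in S0-low, 6023 in S1, 7417 in S2, 7416 in S3 and 3715 in S4/S5, so that S3 was at 1.23 of S1 (1.21 to 1.25) where the replication genes were at 0.527. On non-globin CPM the G2/M sum was 2.02 times as high in S3 as in S1, but as UMIs per cell it was highest in S1, like that of the members, and S3 was at 0.680 of S1 (members 0.319). Histone genes, whose mRNA is made in S phase and is mostly not polyadenylated, summed to 476 CPM in S1 and 1148 CPM in S3. One gene, *Hist1h2bc*, held 23.6% of the histone UMIs.

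Gene by gene, 20 of the 45 members were at least 1.5-fold higher in S1 than in S0-low, against 9.40% of the 6893 genes measured with at least 50 UMIs in both stages, and 0 were 1.5-fold lower, against 18.1%. At 2-fold, 5 members were higher (4.08% of all genes), and as UMIs per cell 34 were 1.5-fold higher (26.3%). The median ratio was 1.43 over the members and 0.919 over all genes, and 41 members lay above the latter. From S1 to S2, 1 member was past 1.5-fold higher (4.30% of all genes) and 6 were past it lower (36.7%), with a median of 0.944 over members and 0.743 over all genes. From S1 to S3, 38 of 44 measured members were at least 1.5-fold lower, against 69.8% of all genes, and 0 were higher, against 8.17%. The count of 38 depended on the antibody scale used to set the stages, as given in the last section. The median ratio of all genes was 0.478. The members' median was 0.419, and 17 of the 44 lay above the median of all genes. On non-globin CPM, 26 members were 1.5-fold lower in S3 than in S1 (40.8% of all genes) and 1, *Rrm2*, was 1.5-fold higher (19.7%).

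Set against S2, nearly all members were lower in S3. In S3, 42 of 44 members were at least 1.5-fold below S2, against 59.5% of all genes, and on non-globin CPM 32 of 44 were, against 20.3%. The median ratio on non-globin CPM was 0.606 for the members and 0.860 for all genes, with 2 members above the latter. From S3 to S4/S5, 29 of the 30 members with 50 UMIs in both stages were 1.5-fold lower on CPM (70.1% of all genes), and 17 of 30 on non-globin CPM (17.0%). The other 15 members had fewer than 50 UMIs in S4/S5, among them *Pole*, which also missed it in S3. With members of at least 1 UMI counted, 44 of 45 were 1.5-fold lower in S4/S5, against 59.3% of all genes.

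By their highest CPM, 18 members peaked in S2 and 17 in S1, while 5 peaked in S0-medium, 5 in S0-low and 0 in S3 or S4/S5. Those highest in S0-low were *Rfc2*, *Rfc5*, *Pold1*, *Pold2* and *Ung*, and those highest in S0-medium were *Mcm10*, *Rfc1*, *Pola2*, *Dut* and *Cdc25a*. As UMIs per cell, 32 members peaked in S1, 10 in S0-medium and 3 (*Orc1*, *Rrm2* and *Slbp*) in S2. On non-globin CPM, 28 peaked in S2 and *Rrm2* alone in S3. The peak stages of all genes were not counted, so these counts have no background share beside them. Over all genes the median CPM ratio was 0.743 for S2 over S1 and 0.614 for S3 over S2. Median depth was highest in S0-medium (10282 UMIs) and S1 (10151.5 UMIs), which bears on the peaks as UMIs per cell. The 3 members with the most UMIs, *Dut* (chromosome 2, 125247248 to 125259049), *Slbp* (chromosome 5, 33640055 to 33652574) and *Rrm2* (chromosome 12, 24708254 to 24714146), held 11.7%, 10.3% and 10.3% of the members' UMIs. Because a 3′ library counts a transcript once whatever its length, levels are compared between genes without a length correction.

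**Figure D2:**
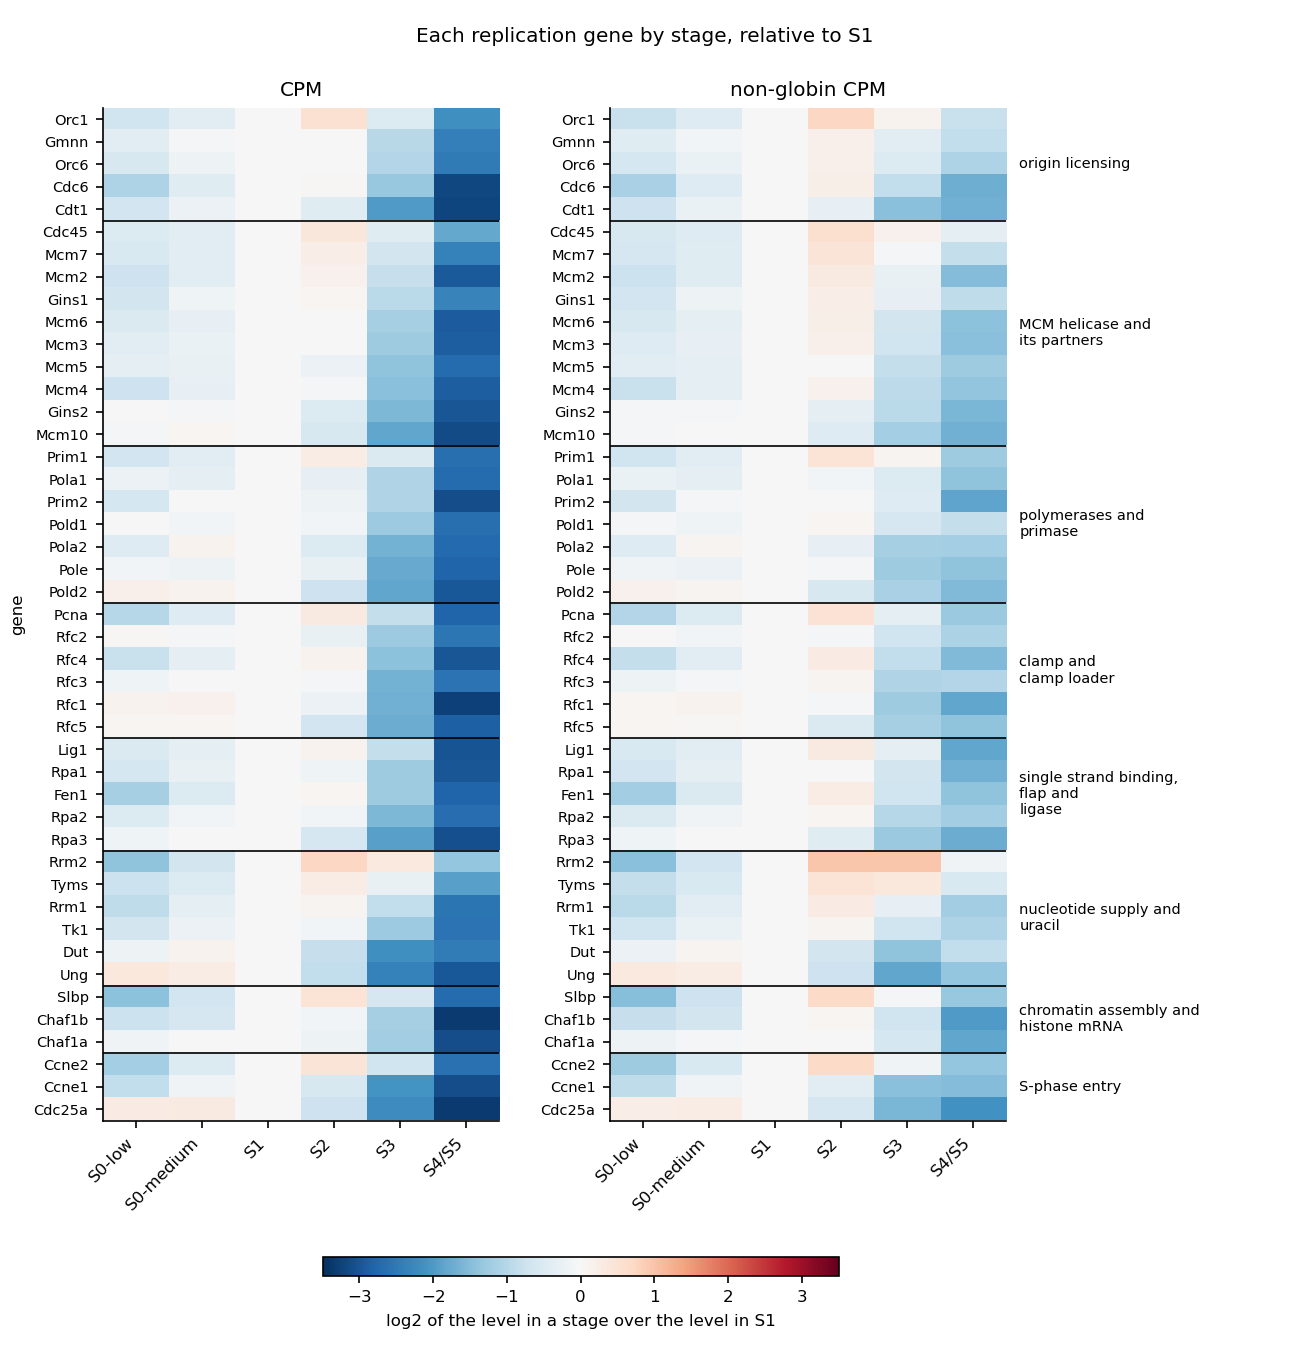
Level of each of the 45 genes in the 6 stages as log2 of the ratio to its own level in S1, on CPM (left) and non-globin CPM (right), with the genes grouped by role and ordered by the ratio S3 over S1. *Rrm2* stayed above its S1 level in S3 on both scales, while *Dut*, *Ung*, *Cdt1*, *Ccne1* and *Cdc25a* were lowest relative to S1 there.

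Among the genes of entry into S phase, the 2 cyclin E genes differed in their highest stage on CPM. *Ccne1*, which encodes cyclin E1, was at 172, 289, 312, 210, 73.4 and 36.5 CPM, in the order S0-low to S4/S5 that is kept below. *Ccne2*, which encodes cyclin E2, was at 44.7, 72.6, 102, 139, 63.2 and 16.6 CPM. The first was therefore highest in S1 and the second in S2: the ratio of S2 over S1 was 0.672 (0.627 to 0.720) for *Ccne1* and 1.37 (1.22 to 1.54) for *Ccne2*, and the intervals did not overlap. As UMIs per cell both were highest in S1. *Cdc25a*, the phosphatase that activates Cdk2, was high from the outset, at 61.1, 62.3 and 50.3 CPM up to S1 and 10.9 CPM in S3. It was among the 5 members with the lowest S3 over S1 ratio (0.217, 0.159 to 0.295), as was *Ccne1* (0.235, 0.208 to 0.265).

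In origin licensing, *Cdt1* was highest in S1 on CPM and *Orc1* in S2, while *Cdc6* was nearly level between S1 and S2. As UMIs per cell *Cdt1* and *Cdc6* were highest in S1 and *Orc1* in S2. *Cdc6*, which loads the helicase with Cdt1, was at 40.9, 64.8, 86.4, 88.2, 34.4 and 9.44 CPM through the stages, a 2.11-fold difference between S1 and S0-low (1.82 to 2.45). *Cdt1* was at 90.6, 126, 145, 108, 36.7 and 15.7 CPM, and its S3 level was 0.253 of S1 (0.215 to 0.299). *Orc1*, the largest subunit of the origin recognition complex, was at 13.8, 17.2, 22.5, 32.7, 16 and 5.09 CPM. The S2 over S1 ratio was 1.45 (1.17 to 1.82) for *Orc1* and 0.747 (0.677 to 0.824) for *Cdt1*. *Gmnn*, whose product geminin binds Cdt1 and blocks a further round of licensing, was the most abundant of the group, at 291, 362, 378, 372, 192 and 72.6 CPM. *Orc6* was at 178, 233, 265, 264, 130 and 48.2 CPM. On non-globin CPM, S3 over S1 was 0.365 for *Cdt1*, 0.719 for *Orc6*, 0.776 for *Gmnn* and 1.10 for *Orc1*.

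Of the helicase subunits, *Mcm2* was highest in S2 on CPM, and *Mcm6* was nearly level between S1 and S2. As UMIs per cell both were highest in S1. *Mcm2* was at 141, 178, 231, 254, 131 and 29.96 CPM and *Mcm6* at 166, 194, 238, 239, 106 and 31.8 CPM. Over *Mcm2* to *Mcm7* the ratio of S1 over S0-low ran from 1.28 for *Mcm5* to 1.66 for *Mcm4*, and that of S3 over S1 from 0.359 for *Mcm4* to 0.636 for *Mcm7*. *Cdc45*, which joins the helicase at firing, was scarce, at 18.4, 19.9, 25.6, 34.0, 19.1 and 7.42 CPM, and its S3 level was 0.745 of S1 (0.563 to 0.985) on CPM and 1.10 (0.815 to 1.485) on non-globin CPM. *Mcm10* and *Gins2*, also needed to activate the helicase, stood at 1.03 and 1.01 of S0-low in S1 and at 0.286 and 0.334 of S1 in S3. These 3 partners thus held both ends of the group in S3 over S1. Of the 10 genes of this group, 3 were past 1.5-fold higher in S1 than in S0-low (9.40% of all genes) and 9 were past it lower in S3 than in S1 (69.8%).

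Polymerase and primase subunits differed least between S0-low and S1, with a summed ratio of 1.19 (1.13 to 1.27). *Prim1*, the catalytic subunit of primase, was at 58.8, 72.3, 93.0, 112, 66.1 and 14.8 CPM and differed by 1.58-fold between S1 and S0-low (1.39 to 1.80). *Pold2*, a subunit of polymerase δ, was at 105, 101, 93.4, 56.9, 26.7 and 11.9 CPM, so that its level was lower at each later stage. *Pola2*, of polymerase α, was at 34.1, 50.1, 46.4, 33.6, 14.8 and 7.04 CPM. *Prim1* in S3 was at 0.711 of S1 (0.611 to 0.827) where *Pold2* was at 0.286 (0.233 to 0.351), and on non-globin CPM *Prim1* was at 1.07 (0.914 to 1.26). *Pole*, the catalytic subunit of polymerase ε, was the scarcest member, at 16.8 CPM in S1.

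The clamp and its loader did not move alike. *Pcna*, the sliding clamp, was at 131, 190, 259, 322, 145 and 37.2 CPM, 1.98-fold higher in S1 than in S0-low (1.83 to 2.15). A processed copy, *Pcna-ps2*, is listed as a gene of its own, so reads of *Pcna* could have been split or lost in counting. *Rfc4*, a small subunit of the loader, was at 125, 172, 216, 234, 80.1 and 27.3 CPM. The other loader subunits, *Rfc1*, *Rfc2*, *Rfc3* and *Rfc5*, had S1 over S0-low ratios between 0.915 and 1.10. *Rfc3* was at 57.4, 62.8, 63.4, 59.9, 20.1 and 10.5 CPM, and its S4/S5 over S3 ratio was 0.524 (0.364 to 0.754) on CPM and 1.01 (0.671 to 1.53) on non-globin CPM.

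Of the genes that bind single strands and mature the lagging strand, *Fen1*, the flap endonuclease, differed most between S0-low and S1. It was at 140, 225, 315, 329, 132 and 44.8 CPM, a 2.25-fold difference (2.09 to 2.43). *Lig1*, the ligase that seals the fragments, was at 125, 139, 176, 191, 98.9 and 21.5 CPM, and its S4/S5 over S3 ratio of 0.217 (0.171 to 0.276) was the lowest of the members so compared. *Rpa3*, the smallest subunit of the single strand binding protein, was at 240, 263, 264, 175, 71.3 and 31.4 CPM. The 3 RPA subunits were ordered alike in S1 over S0-low and S3 over S1: *Rpa1* at 1.53 and 0.420, *Rpa2* at 1.38 and 0.335, and *Rpa3* at 1.10 and 0.270.

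The genes of nucleotide supply held both extremes of the list. *Rrm2*, the regulated subunit of ribonucleotide reductase, was at 330, 567, 878, 1457, 1119 and 343 CPM, and was the only member with a higher CPM in S3 than in S1 (1.28, 1.22 to 1.33). As UMIs per cell *Rrm2* was lower in S3, at 0.752 of S1 (0.724 to 0.782). *Rrm1*, the large subunit of the same enzyme, was at 137, 203, 255, 273, 139 and 43.7 CPM, with an S3 over S1 ratio of 0.546 (0.495 to 0.602). The 2 subunits of 1 enzyme therefore differed in this ratio beyond their counting intervals. *Tyms*, thymidylate synthase, was at 136, 166, 230, 278, 193 and 62.1 CPM, with the second highest S3 over S1 ratio (0.840, 0.765 to 0.922), which on non-globin CPM was above 1 (1.30, 1.17 to 1.43). *Dut*, which removes dUTP so that uracil stays out of DNA, had the opposite profile, at 867, 1071, 984, 564, 223 and 179 CPM. Its S3 over S1 ratio was 0.227 (0.212 to 0.243), and its S4/S5 over S3 ratio of 0.801 (0.726 to 0.885) was the highest of the members. *Ung*, which cuts uracil out of DNA, was at 91.4, 84.7, 70.2, 38.7, 13.8 and 8.92 CPM, and its S3 over S1 ratio of 0.196 (0.150 to 0.256) was the lowest. On non-globin CPM, S4/S5 over S3 was 1.46 for *Dut* (1.31 to 1.64) and 1.39 for *Ung* (0.872 to 2.22).

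Of the genes of chromatin assembly and histone mRNA, *Slbp*, which binds the stem loop of histone mRNA, differed most between S0-low and S1 on CPM, together with *Rrm2*. It was at 380, 645, 1026, 1433, 688 and 159 CPM, 2.70-fold higher in S1 (2.58 to 2.83) where *Rrm2* was 2.66-fold higher (2.53 to 2.79), and at 0.671 of S1 in S3 (0.640 to 0.703). The subunits of the chromatin assembly factor were scarcer: *Chaf1a* was at 75.4, 81.5, 82.5, 73.1, 35.5 and 9.60 CPM and *Chaf1b* at 35.6, 39.8, 59.7, 55.8, 26.7 and 5.86 CPM. Their S1 over S0-low ratios were 1.09 (0.966 to 1.24) and 1.67 (1.43 to 1.96), which did not overlap. From S2 to S3 *Slbp* CPM was lower, while histone CPM was 852 in S2 and 1148 in S3. Histone mRNA is mostly not polyadenylated, so this 3′ library need not count the histone mRNA that *Slbp* binds. A relation between the levels was not tested.

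Within a Ter119 class the summed level followed CD71. The Ter119-low cells were ordered by CD71 into 10 groups of 317 or 318, and the sum was higher in each group than in the one before, from 5068 CPM (4949 to 5190) at a median of 14 CD71 counts to 9270 (9152 to 9390) at 1493. Intervals overlapped between groups 2 and 3, at 5299 and 5501 CPM, and between groups 4 and 5, at 6601 and 6667 CPM. Named non-erythroid cells made up 37.1%, 32.4% and 19.2% of the first 3 groups, and without them the sum was 4991, 5416 and 6006 CPM. Among Ter119-intermediate cells the lowest of 5 groups stood apart at 5812 CPM, and the others ran from 8668 to 9824 CPM. Globin took 24.7% of UMIs in that lowest group and 11.3% to 14.8% in the others. Among Ter119-high cells the 5 groups ran from 1213 CPM (1155 to 1274) at low CD71 to 5746 (5640 to 5855) at high CD71. On non-globin CPM the 2 lowest of these groups did not differ beyond counting error (4331, 4114 to 4558, and 4253, 4068 to 4444), and the sum was 5083, 7145 and 8368 in the rest. The globin share was 70.9% in the lowest and 31.3% in the highest of the 5.

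**Figure D3:**
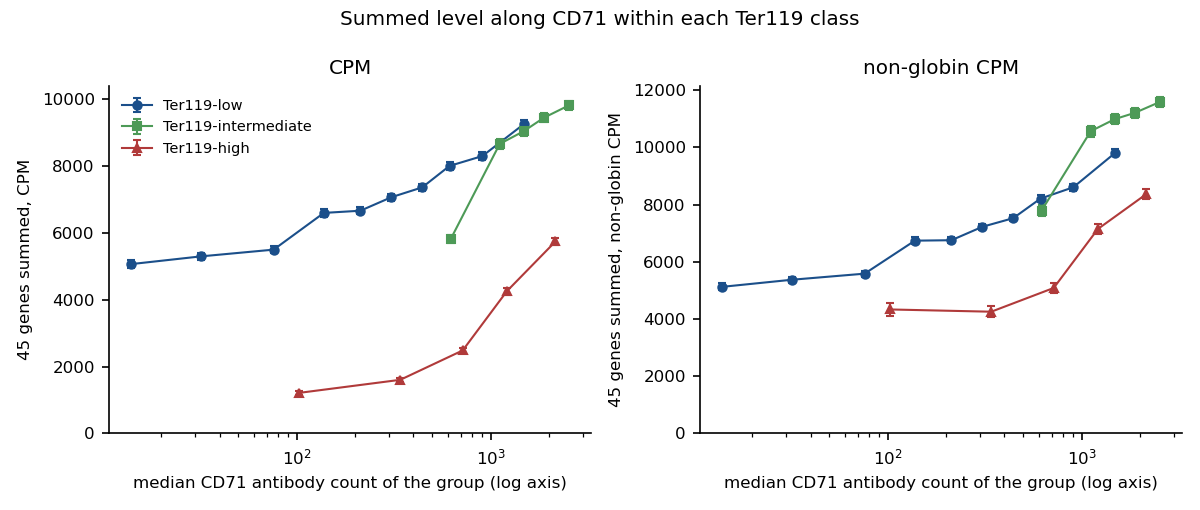
Summed level of the 45 genes (CPM, left, and non-globin CPM, right) against the median CD71 antibody count of groups of cells ordered by CD71 within each Ter119 class; bars are 95% counting intervals. The sum was higher at higher CD71 in all 3 classes as CPM, and the Ter119-high groups lay below the other classes at a like CD71 count.

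Within S0-low, cells of the erythroid and unnamed clusters were split into 4 sets of 300 by cKit, a receptor of early progenitors. The sum was 6736, 5697, 5784 and 6098 CPM from low to high cKit, and 32.0, 35.9, 50.8 and 69.5 UMIs per cell. The CPM and the UMIs per cell were thus ordered differently, and the median depth ran from 4278 to 11246 UMIs per cell over these sets. The median CD71 count was 110, 84.5, 75 and 87 from low to high cKit. The part of depth and CD71 in these orders was not tested.

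To compare single cells at equal depth, each cell was thinned at random to 2000 UMIs, which no cell fell short of. The median number of replication gene UMIs per thinned cell was 11, 14, 17, 19, 6 and 2 in the order of the stages. The middle 50% of cells lay between 13 and 22 in S1, and between 3 and 15 in S3, where the spread was widest relative to the median. The variance over the mean was 2.17, 2.0 and 2.08 up to S1, then 3.99 in S2, 7.99 in S3 and 4.10 in S4/S5. All of these exceed what counting error alone gives, so the intervals of levels and ratios are too narrow for the spread of cells. A limit was set at the 10th percentile of S1, which was 11 UMIs. Below it lay 43.9% of S0-low cells (41.4 to 46.5, exact binomial), 20.3% of S0-medium, 8.99% of S1, 18.2% of S2 (16.2 to 20.4), 66.1% of S3 (62.8 to 69.3) and 95.3% of S4/S5 (93.7 to 96.6). Without thinning, 67.9% of S3 cells were below the corresponding share of UMIs. When cells were thinned to 1000 non-globin UMIs instead, which left out 22 S3 and 238 S4/S5 cells, 31.1% of S3 cells (28.0 to 34.4) and 44.4% of S4/S5 cells (40.6 to 48.3) were below the 10th percentile of S1. This second limit was 4 UMIs, and 5.40% of S1 cells lay below it, against 8.99% under the first, so the limits were not equally strict. The order of the stages S1, S3 and S4/S5 was the same under both, with the share of S3 cells at 66.1% or 31.1%.

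**Figure D4:**
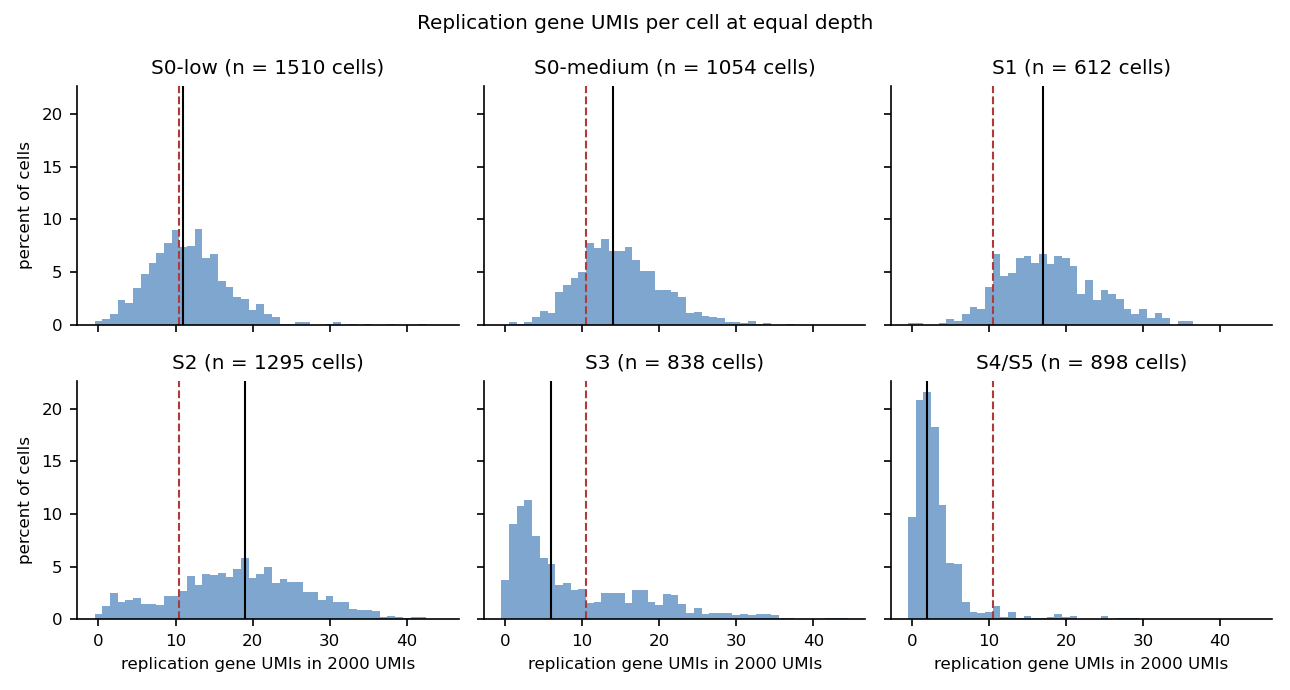
Percent of cells by the number of replication gene UMIs among 2000 UMIs drawn from each cell, for the 6 stages; the solid line marks the median and the dashed line the limit of 11 UMIs, below which cells were counted as low. In S3 most cells lay at a few UMIs with a long stretch of cells up to the level of S2, and 66.1% were below the limit, against 8.99% in S1.

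The members varied together from cell to cell within a stage. For each member, the cells of a stage were ranked by the non-globin share of the other 44, and the 25% of cells highest in it were set over the 25% lowest. From S0-medium to S3, the median ratio of the members was 1.496, 1.72, 2.50 and 4.24. At least 1.5-fold higher in these 4 stages were 22 of 45, 29 of 44, 40 of 44 and 36 of 37 members, counting members with 50 UMIs in both sets together. Between sets ranked by the members' sum, the same held for 7.10%, 10.1%, 14.6% and 34.1% of all other genes. In S3 the median ratio of all other genes was 1.21. The member with the lowest ratio was *Cdc25a* in S0-medium, S1 and S2 and *Dut* in S3, and the highest was *Ccne2* in S0-medium, S2 and S3 and *Chaf1b* in S1. The sets of S3 also differed in other measures: in the lowest and the highest, the globin share was 53.2% and 28.5%, the median CD71 count 1194 and 1606, the median Ter119 count 134 and 113, and the median depth 3865 and 4818 UMIs. Their part in the ratios was not tested.

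The members were then set against the G2/M genes, to see which were low in cells rich in mitotic transcripts. Cells of a stage were ranked by the G2/M share of non-globin UMIs, and the 25% of cells highest and lowest in it were compared (153 cells each in S1, 323 in S2 and 209 in S3). The sum of the members in the highest over the lowest set was 0.925 in S1 (0.899 to 0.952), 0.854 in S2 (0.834 to 0.875) and 1.23 in S3 (1.16 to 1.30). Without *Rrm2*, a sum added after the values were seen, the S3 ratio was 0.935 (0.877 to 0.997), and the median over the members there was 0.886. In S1, 1 of 45 members was 1.5-fold higher (6.16% of all genes) and 4 were lower (9.65%), and in S2, 1 was higher (10.2%) and 9 were lower (19.4%), a share near that of all genes. In S3, 7 of 27 members with enough UMIs were higher (25.3%) and 9 were lower (15.4%). The sets also differed in other measures. In S2 the lowest and highest sets had globin shares of 12.7% and 21.6% and median Ter119 counts of 48 and 62. The globin shares were 2.46% and 3.89% in S1, and 52.3% and 43.6% in S3, where the median Ter119 count was 132 in both sets. Their part in the ratios was not tested.

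The members at either end of this ranking are given next. They were picked for their ratios, so the gap between the ends is no test of a difference. *Ccne2* was at 66.1 non-globin CPM in the S1 cells highest in G2/M genes and at 162 in the lowest, a ratio of 0.408 (0.298 to 0.559), and in S2 at 59.2 and 281, a ratio of 0.210 (0.161 to 0.275). *Ung* had ratios of 0.378 (0.265 to 0.540) in S1 and 0.379 (0.247 to 0.581) in S2. *Ccne1*, *Rfc3*, *Rpa2*, *Dut* and *Cdt1* were also low in S2, with ratios of 0.420, 0.317, 0.482, 0.504 and 0.529. At the other end, *Pold1* was highest in S1, at 1.83 (1.14 to 2.94), and *Pola1* in S2, at 1.85 (1.29 to 2.67). In S0-medium cells ranked the same way (263 cells in each set), *Pold1* was instead among the lowest members, as were *Ung* and *Ccne2*. *Pola1* and *Rrm1* were among the highest there. *Rrm1* was at 1.32 in S1 (1.12 to 1.56) and 1.47 in S2 (1.28 to 1.68), and *Tyms* at 1.15 in S1 (0.956 to 1.39) and 1.196 in S2 (1.05 to 1.37). In S3, *Rrm2* was at 2411 non-globin CPM in the set highest in G2/M genes and at 970 in the lowest, a ratio of 2.49 (2.22 to 2.79). *Slbp* was at 0.859 (0.787 to 0.938) in S1, 0.746 (0.701 to 0.794) in S2 and 0.712 (0.614 to 0.826) in S3. Genes named here were taken from the ends of the ranking after their values were seen. Ranked instead by histone genes, the sum of the members was at 1.09, 1.04 and 1.06 in S1, S2 and S3, with a median of 1 histone UMI per cell in the lowest sets. Without *Rrm2* these were 1.06, 0.942 and 0.870. Gene by gene, 10 of 45 members were 1.5-fold lower in S2 (26.5% of all genes) and 10 of 35 in S3 (16.9%). The medians over the members were 0.873 in S2 and 0.839 in S3, and those over all genes 0.870 and 0.964. The lowest and highest histone sets had globin shares of 9.64% and 28.4% in S2, and 35.1% and 46.7% in S3. In S2 their median depth was 7252 and 4261 UMIs. The part of these differences in the ratios was not tested.

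**Figure D5:**
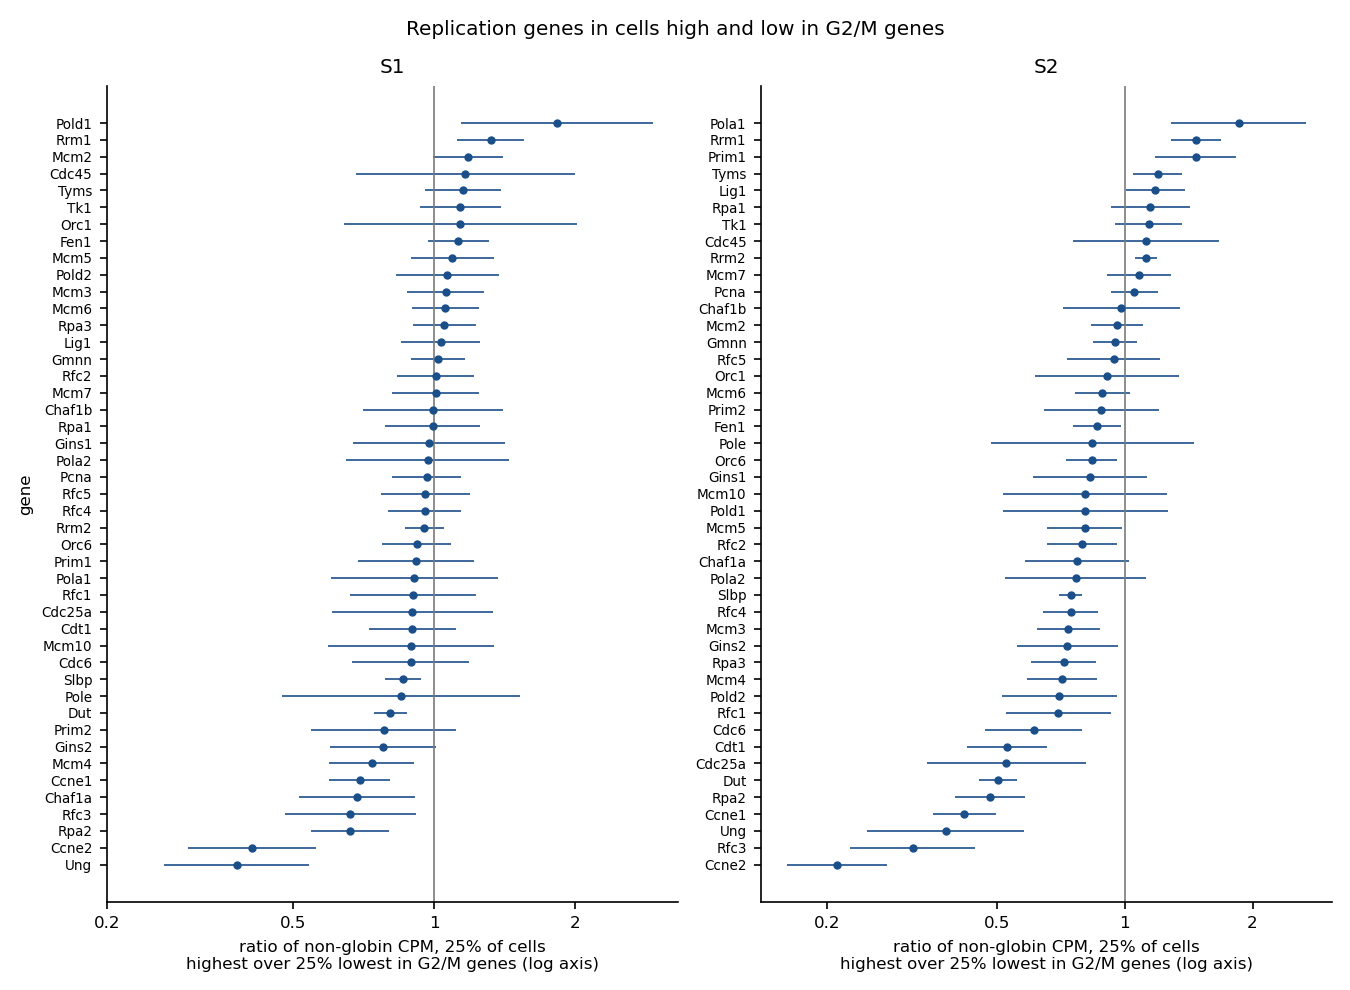
Ratio of non-globin CPM between the 25% of cells highest and the 25% lowest in G2/M genes, on a log axis, for each of the 45 genes in S1 (left) and S2 (right); bars are 95% counting intervals and the vertical line marks 1. *Ccne2* and *Ung* had the lowest ratios in S1 (0.408 and 0.378), and *Ccne2* and *Rfc3* in S2 (0.210 and 0.317).

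Other genes of replication, a list of 46 found in the table, differed less than the members up to S1, and from S1 to S3 they were near all genes. Of 45 measured, 8 were 1.5-fold higher in S1 than in S0-low (9.40% of all genes) and 5 lower (18.1%), and their sum differed by 1.24-fold (1.22 to 1.26). From S1 to S3, 1 of 36 was higher (8.17%) and 27 were lower (69.8%), and the summed ratio was 0.606 (0.594 to 0.619). The median ratio was 0.478 over the list and 0.478 over all genes, with 18 of the list above the latter and 18 below. *Tipin*, of the fork protection complex, was the highest of the list in S1, at 540, 709, 797, 705, 328 and 123 CPM through the stages. The ratio of S3 over S1 was lowest for *Cdca7*, at 0.221 (0.173 to 0.283), and highest for *Top1*, the topoisomerase that relaxes DNA, at 1.83 (1.71 to 1.96).

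The E2F family list of 13 genes was *E2f1* to *E2f8*, *Tfdp1*, *Tfdp2*, *Rb1*, *Rbl1* and *Rbl2*, so its sum is not a level of E2F factors alone. It summed to 585, 856, 960, 1080, 1015 and 714 CPM, with an S3 over S1 ratio of 1.06 (1.01 to 1.11). That ratio was 1.82 (1.74 to 1.91) on non-globin CPM and 0.578 (0.556 to 0.601) as UMIs per cell, where the members were at 0.799 and 0.319. Of 10 measured in S0-low and S1, 5 were 1.5-fold higher in S1 (9.40% of all genes) and 0 lower (18.1%), and of 9 measured in S1 and S3, 3 were higher in S3 (8.17%) and 4 lower (69.8%). *E2f4* was the highest in S1, at 294, 488, 538, 462, 336 and 162 CPM. *E2f6* had the lowest S3 over S1 ratio, 0.263 (0.191 to 0.361). *Tfdp2*, a partner with which E2F factors bind DNA, had the highest, 3.89 (3.46 to 4.39), and was at 48.5 CPM in S0-low, 86.5 in S1, 337 in S3 and 383 in S4/S5. *E2f2* was at 10.8, 24.4, 37.0, 93.0, 127 and 95 CPM, so that these 2 genes were highest where most members were low.

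The members were also transcribed in the 4 named non-erythroid clusters, whose cells are taken whole here and include the 310 that lay in S0-low by antibody. Their sum was 5026 CPM (4919 to 5135) in 244 megakaryocyte-like cells and 4951 (4839 to 5065) in 270 myeloid-like cells, whose intervals overlapped. It was 3072 (2919 to 3231) in 83 macrophage-like and 3027 (2946 to 3110) in 189 hepatocyte-like cells, which did not differ from each other beyond counting error. As CPM, all 4 lay below every stage from S0-low to S2, and above S4/S5. On non-globin CPM the macrophage-like (3129) and hepatocyte-like cells (3062) were below S4/S5 (4375). Globin took 0.978% of UMIs in the megakaryocyte-like cells and 2.13% in the macrophage-like cells. The part of free RNA in these levels was not tested.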

How the data were processed

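Per the labels and the study's methods, the authors aligned cDNA reads from a 10x 3′ library to mm10 in Cell Ranger, and the deposited matrix holds raw UMI counts, from before the authors dropped doublets and poor cells. Antibody reads were matched to barcodes in CITE-seq-Count, and the deposited antibody counts are raw too. Whether antibody reads were collapsed by molecule is not given in the sources used here, nor are gate positions, so stages were rebuilt. The member genes and lists were chosen with earlier results of these data known.

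Kept cells had 300 to 5000 genes and mitochondrial UMIs of 9% or less (508 of 7863 were removed). The Scrublet method, with 6% as the expected rate, called 128 doublets (1.63% of cells), and 7244 cells remained after both steps. The library holds 2510 to 38047 UMIs per cell. Antibody counts were turned into centred log ratios over all cells. A cell passed as lineage-low if its 5 lineage antibodies together lay no more than 2 scaled median absolute deviations above the median on a log scale. By k-means, Ter119 gave 3 classes and CD71 gave 3 within Ter119-low and 2 within Ter119-high cells. S2 took Ter119-intermediate cells above the upper CD71 border. Leiden clusters (resolution 0.8, 2000 variable genes, 16 principal components, 30 neighbours) numbered 17, and those with enough marker genes were named.

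Levels are means over cells of CPM, as in the study, and intervals are gamma and log-normal 95% intervals for counting error. Genes were compared with at least 50 UMIs in both stages, against a fold of 1.5. Named genes were the 2 highest of each role in S1 and the 5 members with the highest S1 over S0-low ratio. The 5 at each end of S3 over S1 and of S4/S5 over S3 were named too. For S4/S5 over S3, members with at least 20 UMIs in both stages were ranked. Counts were simulated for S3 over S1 with 4665 genes. All 50 genes set to 0.25-fold and 48 of 50 set to 0.5-fold passed 1.5-fold in the right direction. So did all 50 set to 2-fold and all 50 set to 4-fold, while 17 of the genes left unchanged also passed 1.5-fold. The simulation held counting error alone, without the spread among cells or the lower median ratio of all genes in the real data. It therefore checks the computation and not the S3 over S1 calls on the real cells. Alternatives changed the denominator, the mean over cells, the antibody scale and classes, the filters, the members and the thresholds. The tools were scanpy 1.11.5, scikit-learn 1.9.0, numpy 2.4.6, matplotlib 3.10.9, pandas 2.3.3 and scipy 1.17.1 under Python 3.11.15, with random seed 7.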

Additional observations from a re-analysis of the deposited data

How the results depend on the processing

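The cDNA and antibody libraries hold the same cells and were joined cell by cell. No pairing between samples was possible, because the series has 1 sample of each. There is 1 library, so no replicate could be left out. The 3 summed ratios were recomputed under 13 alternatives, and 0 changed direction. Of the 39 values so obtained, 28 lay outside the counting interval of the ratio reported. Of 84 counts of members, 75 stayed within 1.5 times the value reported. Some counts reported were 0, and a 0 that stayed 0 is among the 75. Ratios of named members gave 243 values under 3 alternatives. Of these, 139 moved outside the interval reported, and 2 more, of ratios past 1.5-fold, changed direction.

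The sum in S1 over S0-low was 1.53, and it was 1.58 with the non-globin denominator, 1.98 as UMIs per cell, 1.49 with pooled CPM, 1.56 with Gaussian mixture classes, 1.42 with log10 antibody counts, 1.49 with antibodies scaled within each cell, 1.57 with CD71 terciles, 1.60 with no lineage limit, 1.57 with no quality limits, 1.46 without named non-erythroid cells, 1.40 as the geometric mean of the members and 1.41 without *Dut*, *Slbp* and *Rrm2*. In the same order of settings, S3 over S1 (0.527) was 0.799, 0.319, 0.606, 0.585, 0.790, 0.552, 0.540 and 0.544 up to no lineage limit, 0.538 with doublets kept, 0.420 as the geometric mean and 0.442 without the 3 genes. S4/S5 over S3 (0.338) was 0.591 with the non-globin denominator, 0.263 as UMIs per cell, 0.264 with log10 antibody counts, 0.357 with no lineage limit and 0.355 as the geometric mean. The cause was not tested.

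Members 1.5-fold higher in S1 than in S0-low numbered 20, against 34 as UMIs per cell (26.3% of all genes) and 5 at 2-fold (4.08% of all genes). Those higher in S3 than in S1 numbered 0, against 1 with the non-globin denominator (19.7% of all genes), Gaussian mixture classes (8.89%), log10 antibody counts (7.61%) or antibodies scaled within each cell (9.53%). Those lower in S3 than in S1 numbered 38, against 24 with log10 antibody counts (71% of all genes), and those lower in S4/S5 than in S3 numbered 29, against 17 with the non-globin denominator (17.0%) and 44 with at least 1 UMI (59.3% of all genes), where more members were measured. The share of low cells in S3 was 66.1%, against 61.2% with Gaussian mixture classes, 45.8% with log10 antibody counts and 31.1% when thinned to 1000 non-globin UMIs. The limit of the last setting was stricter, with 5.40% of S1 cells below it in place of 8.99%. With the non-globin denominator the S4/S5 over S3 ratio was 1.01 for *Rfc3* (0.671 to 1.53), 1.39 for *Ung* (0.872 to 2.22) and 1.46 for *Dut* (1.31 to 1.64), where CPM put all 3 below 1. S3 over S1 for *Tyms* was 1.30 in place of 0.840 with that denominator, and for *Rrm2* 0.752 in place of 1.28 as UMIs per cell. Without *Rrm2*, an alternative chosen after seeing the data, the sum in cells high over low in G2/M genes was 0.935 in S3 in place of 1.23, and in histone genes 0.942 in place of 1.04 in S2 and 0.870 in place of 1.06 in S3. Depth limits S4/S5 most: 15 members had fewer than 50 UMIs there.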
